A study of Mus musculus with 8 samples.

Results

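Natural killer (NK) cells were selected on their own transcripts among the CD45+ cells of E0771 mammary tumors, and 191 of 10605 cells passed the selection. A cell was taken as an NK cell when it held at least 2 unique molecular identifiers (UMIs, single counted transcripts) of Ncr1 and Klrb1c together, at most 1 UMI of Cd3d, Cd3e and Cd3g together and at most 1 UMI of Csf1r. Ncr1 encodes the activating receptor NKp46 and Klrb1c the NK1.1 antigen, the Cd3 genes encode the signaling chains of the T cell receptor, and Csf1r encodes the growth factor receptor of monocytes and macrophages. By this choice every cell held Ncr1 or Klrb1c, and 153 held both, 20 Ncr1 alone and 18 Klrb1c alone. These 6 genes chose the cells, so they were left out of every test of gene levels. Csf1r and the Cd3 genes remained in the marker sums below, which are descriptions.

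NK cells are innate lymphocytes that kill target cells without prior priming. Signals from activating receptors (NKG2D, NKp46 and some Ly49 proteins) are weighed against those from inhibitory receptors that read MHC class I on the target, and killing proceeds when perforin opens a way for granzymes, the serine proteases of the lytic granule. They also release interferon gamma and the chemokines CCL3, CCL4, CCL5 and XCL1, the last of which draws dendritic cells into tumors. Eomes and T-bet drive their differentiation, and IL-15, read through the shared Il2rb chain, keeps them alive.

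The tumors were grown from parental E0771, a mouse mammary cancer line, or from E0771-Res1 or E0771-Res2, lines that the study established from E0771 tumors that relapsed after paclitaxel plus anti-PD-1. Cells were implanted in the mammary fat pad of female mice (C57BL/6 is the strain that the study names for E0771 tumors), and CD45+ cells were sorted on day 18 from 2 parental, 3 E0771-Res1 and 3 E0771-Res2 tumors, 1 per mouse. The labels name no treatment and no age of these hosts, parental replicate 2 was not analysed here, and each resistant line is 1 derivative, so differences between lines and differences that go with resistance cannot be told apart. Each deposited matrix held 5036667 to 18894504 UMIs, the NK cells of a mouse held 109867 to 465986 UMIs, and no cell barcode occurred in more than 1 mouse.

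The label was checked against the markers that the selection did not use. Gzma, the granule tryptase, was present in 168 of the 191 cells and Prf1, which encodes perforin, in 179, and only 5 cells lacked both. After each cell was thinned to 3500 UMIs, which left 172 NK cells, 592 T cells and 3140 Csf1r+ cells, Gzma was detected in 84.3%, 7.8% and 5.5% of them and Prf1 in 83.1%, 19.6% and 1.0%. T cells here are cells with at least 2 Cd3 UMIs and at most 1 UMI of the NK genes and of Csf1r (707 cells), and Csf1r+ cells are cells with at least 2 Csf1r UMIs and no UMI of the NK or Cd3 genes (3335 cells). At the threshold itself, 25 NK cells held exactly 2 UMIs of the NK genes. Of these 19 had Gzma, and the median over all 25 was 28 Gzma UMIs. Just outside, 109 cells held exactly 1 UMI, of which 30 had Gzma, and the median over all 109 was 0.

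RNA of other cell types was present in the NK cells at a measurable level. The 20 monocyte and macrophage markers summed to 7989 and 3322 CPM (the UMIs of a gene per 1e+06 UMIs in the summed NK cells of a mouse) in parental replicates 1 and 3. They summed to 8054, 4845 and 3943 CPM in E0771-Res1 and to 8365, 5759 and 11317 CPM in E0771-Res2 replicates 1, 2 and 3, against a mean of 29377 in Csf1r+ cells. All 20 had UMIs. They include Csf1r, by which both classes were chosen, so part of this contrast was set by the selection. Spp1, the second most abundant, was higher in NK cells than in Csf1r+ cells (1410.4 against 244 CPM), so the sum is not of macrophage RNA alone. The most abundant was Lyz2, the lysozyme of phagocytes, which was detected in 75.0% of thinned NK cells, 81.2% of T cells and 98.8% of Csf1r+ cells. In 28 NK cells Lyz2, C1qa, C1qb, C1qc and Apoe held at least 0.4% of UMIs, and counts were also taken without them.

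The other marker lists were lower on average. The 12 dendritic cell markers, led by Cd74, averaged 3017 CPM and reached 6481 CPM in E0771-Res1 replicate 3, above the macrophage sum of that mouse. The 16 T cell markers averaged 873 CPM in NK cells and 5329 CPM in T cells. They include the Cd3 genes, by which both classes were chosen, so part of this contrast was set by the selection. Their sum in NK cells came mainly from the constant region genes Trbc1 and Trbc2, at 428 and 294 CPM. Trac, the alpha chain gene, stood at 17.2 CPM in NK cells and 556 CPM in T cells, and was detected in 5.2% and 67.6% of thinned cells. Markers of B cells (80.4 CPM, led by Ighm), tumor and stroma (88.7, led by Pecam1), innate lymphocytes of types 2 and 3 (64.1, led by Gata3), gamma delta and NKT cells (54.6, led by Trdc), basophils and mast cells (40.7, led by Cma1), neutrophils (20.6, led by Csf3r) and erythroid cells (0.455, led by Hba-a1) were near 0. Of these lists 6 of 10 B cell, 4 of 12 tumor and stroma, 6 of 9 innate lymphocyte, 4 of 8 mast cell, 6 of 10 neutrophil and 4 of 5 erythroid genes had no UMI in any NK cell. Scrublet marked 30 of 11430 deposited cells (0.262%) as doublets, too few to be taken as a working call, and doublets were therefore kept.

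NK cells were a small fraction of the tumor leukocytes. Their share of the cells kept was 2.05% and 2.15% for the parental mice, 2.08%, 2.15% and 1.81% for the mice with E0771-Res1 and 1.30%, 2.44% and 1.12% for those with E0771-Res2. The 3 groups overlapped, with both the highest and the lowest value among the E0771-Res2 mice. With every cell thinned to 2000 UMIs the shares were 0.952% and 1.81% for parental, 1.10%, 1.43% and 0.814% for E0771-Res1 and 0.887%, 0.873% and 0.747% for E0771-Res2 mice. The highest value was then that of parental replicate 3, and the groups still overlapped (6 resistant against 2 parental mice, exact permutation p = 0.107). The means were 2.10% ± 0.0699 (SD, n = 2) for parental, 2.02% ± 0.178 (SD, n = 3) for E0771-Res1 and 1.62% ± 0.717 (SD, n = 3) for E0771-Res2. The 6 resistant tumors lay 0.280 percentage points under the parental ones (1.82% against 2.10%), a difference inside the range of the mice (exact permutation test, two-sided, 28 regroupings, p = 0.643, smallest possible 0.0357, adjusted p = 0.929 over 3 measures). The same exact test gave p = 0.9 for E0771-Res1, p = 0.4 for E0771-Res2 against parental and p = 0.4 for E0771-Res2 against E0771-Res1, in designs that allow no p under 0.1.

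Among lymphocytes, the NK share of NK and T cells together was 17.7% and 26.5% for the parental mice, 20.9%, 25.0% and 17.7% for the mice with E0771-Res1 and 23.5%, 25.0% and 18.3% for those with E0771-Res2. The parental mice spanned the values of all 6 resistant mice, and the means were 22.1% in parental and 21.7% in resistant tumors (exact permutation p = 0.929). With 13 to 42 NK cells per mouse, the exact (Clopper-Pearson) 95% intervals of single shares were wide. For the share of the cells kept they were 1.15% to 3.65% in parental replicate 3 and 1.73% to 3.35% in E0771-Res2 replicate 2. For the share of NK and T cells they were 14.9% to 41.1% and 18.3% to 32.8% in the same mice. These intervals cover counting error only, and the p-values measure the spread between mice.

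**Figure D1:**
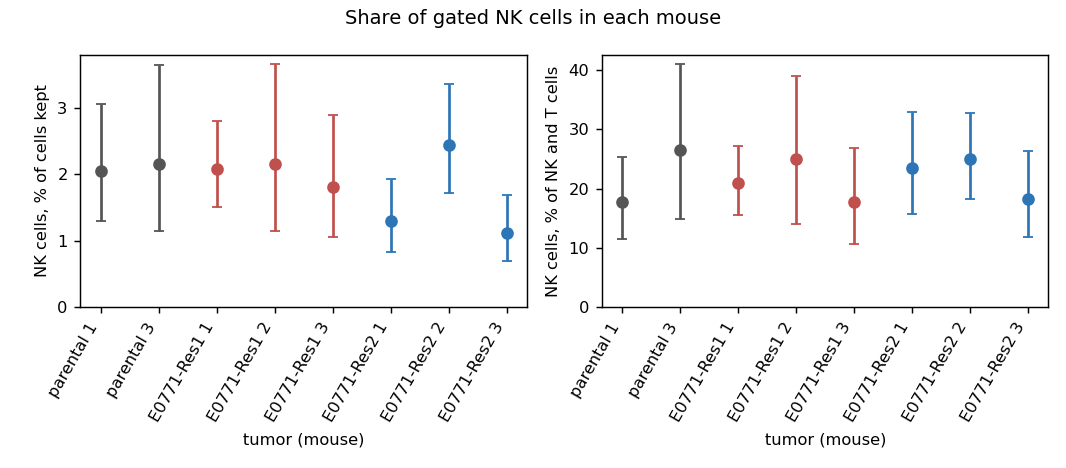
Share of gated NK cells in each mouse, as a percentage of all cells kept (left) and of NK and T cells together (right), with exact 95% intervals of the count. The 8 mice lie between 1.12% and 2.44% on the left, and the intervals of the 3 groups overlap in both panels.

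Granule and killing genes were the most abundant functional group. The 25 genes of this list summed to 24210 ± 2728 CPM (SD over 8 mice) in NK cells, 4779 CPM in T cells and 3607 CPM in Csf1r+ cells. Gzma stood at 7216 and 6499 CPM in parental, 4874, 13124 and 5463 CPM in E0771-Res1 and 8492, 6451 and 7074 CPM in E0771-Res2 replicates. One E0771-Res1 mouse was the highest and another the lowest, so the groups overlapped. Prf1 stood at 1040.5 and 737 CPM in parental, 781, 1236 and 897 CPM in E0771-Res1 and 932, 1114 and 1041 CPM in E0771-Res2, again with overlap. Nkg7, which encodes a granule membrane protein needed for degranulation, averaged 2337 CPM (T cells 1034) and was detected in 98.3% of thinned NK cells, and Srgn, the granule proteoglycan, averaged 1543 CPM with 1572 CPM in T cells. The mean of Gzma was 7399 CPM in NK cells, 85.2 CPM in T cells and 18.7 CPM in Csf1r+ cells.

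Klrk1, which encodes NKG2D, was the most abundant of 19 genes on the activating receptor list at 598 ± 142 CPM (SD, n = 8), with 175 CPM in T cells. Klra8, which encodes Ly49H, the receptor for a cytomegalovirus protein, averaged 229 CPM and ranged from 72.8 to 415 CPM between mice. Klra8 transcripts were found in 30.8% of thinned NK cells and 0.7% of T cells. The integrin Itgal (229 CPM) and the adhesion receptors Slamf7 (209) and Cd2 (189) came next on the list, and Cd2 was higher in T cells in all 8 mice. The activating list as a whole summed to 2474 ± 150 CPM in NK cells and 2736 CPM in T cells.

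The inhibitory receptor list was led by Klrd1, which encodes CD94, the partner of inhibitory and of activating NKG2 chains, at 970 ± 168 CPM and by Klre1 at 583 ± 90.2 CPM. Klra7 (430 CPM), Klra4 (281) and Klra9 (258), which encode Ly49 proteins, followed. Klra4 encodes Ly49D, an activating receptor, although it was placed on the inhibitory list and is counted there, and its level exceeded those of Klra8 and Itgal. The levels of Klra7, Klra4 and Klra9 in T cells were 12.6, 0.947 and 4.46 CPM, and Klra7 and Klra4 were detected in 43.0% and 30.2% of thinned NK cells. Among checkpoint receptors the levels were low, with Lag3 at 52.2 CPM, Pdcd1 (PD-1) at 31.1 CPM and Tigit at 6.00 CPM. Pdcd1 was detected in 3.5% of thinned NK cells and 16.2% of T cells. The 23 receptor adaptors and kinases were led by Fcer1g (3165 CPM) and Tyrobp (2262 CPM), the signaling chains of NK receptors that myeloid cells also use (4801 and 3091 CPM in Csf1r+ cells), and by the kinase Txk (474 CPM, against 61.4 in T cells).

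Among transcription factors, Eomes stood at 157 ± 31.1 CPM in NK cells and 8.31 CPM in T cells, and was detected in 43.0% and 2.4% of thinned cells. Tbx21 (T-bet) averaged 72.7 CPM, and the most abundant members of the 28-gene list were Id2 (1007 CPM), Irf8 (845), Klf2 (518) and Bhlhe40 (384), all higher than in T cells on average. The next list held genes of innate lymphocytes of type 1 (ILC1) and of tissue residency. Its common genes Rgs1 (1962 CPM), Rgs2 (483) and Cd69 (439) were high in T cells too, while the genes that mark residency more closely were low. Itga1 (CD49a) was detected in 9.3%, Cxcr6 in 6.4% and Zfp683 (Hobit) in 1.2% of thinned NK cells, and Itga2 (CD49b), which marks conventional NK cells, in 8.7%. The mature list was led by Lgals1 (2224 CPM), S100a6 (1743) and Ly6c2 (778), with Klrg1 in 8.1% of thinned cells, and the immature list by Thy1 (190 CPM), Emb (173) and Ltb (157).

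**Figure D2:**
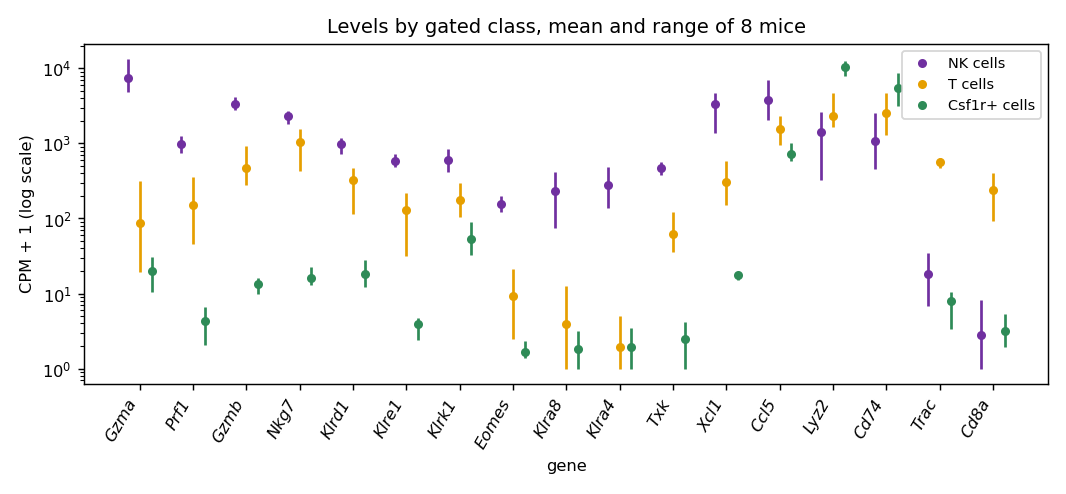
Levels (CPM plus 1, log scale) of NK markers and of 4 markers of other cells (Lyz2, Cd74, Trac and Cd8a) in NK cells, T cells and Csf1r+ cells, with points at the mean of 8 mice and lines over the range. Gzma reaches 7399 CPM in NK cells and 85.2 CPM in T cells, whereas Lyz2 averages 1414 CPM in NK cells and 10471 CPM in Csf1r+ cells.

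NK cells also expressed chemokine genes. The 20 cytokines and chemokines summed to 11134 ± 2046 CPM, against 4626 CPM in T cells. Xcl1 stood at 4139 and 4688 CPM in parental, 3386, 1701 and 4027 CPM in E0771-Res1 and 3576, 4019 and 1395 CPM in E0771-Res2 replicates, and T cells averaged 307 CPM. All 6 mice with resistant tumors lay below both parental mice, the nearest at 4027 against 4139 CPM, and the difference was not called (edgeR adjusted p = 0.984 for both lines, with 0% of genes called). Ccl5 averaged 3734 CPM, ranging from 2065 to 7080 CPM in mice of the same line (E0771-Res2), and Ccl4 and Ccl3 averaged 2282 and 644 CPM. The other classes held these transcripts too. Ccl4 was detected in 78.5% of thinned NK cells, 62.8% of T cells and 70.4% of Csf1r+ cells. For Ccl3 these were 57.6%, 41.6% and 53.0%, and for Ccl5 72.1%, 71.5% and 43.0%. Ifng averaged 456 ± 171 CPM in NK cells and 209 CPM in T cells, with UMIs in 145 of the 191 NK cells, while Tnf averaged 58.5 CPM and was lower than in T cells and Csf1r+ cells (87.5 and 171).

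Among the receptors for soluble signals, Il2rb led the 28 cytokine receptors and their signal transducers at 703 ± 96.3 CPM (T cells 301), followed by Ifngr1 (365), Il2rg (302), Jak1 (265) and Socs3 (156). Chemokine and lipid receptors were led by Ccr2 (320 CPM, with 146 CPM in T cells). MHC class I genes, led by B2m, summed to 15676 CPM in NK and 15834 CPM in T cells. Interferon response genes, led by Ifi27l2a, summed to 11368 CPM in NK cells and 18218 CPM in T cells, and were lower in NK cells in all 8 mice. The most abundant members of the metabolic lists were Gapdh (1190.5 CPM) for glycolysis and hypoxia, Cox4i1 (963 CPM) for the mitochondrial list and Npm1 (1120 CPM) for mTORC1 and MYC targets. Junb (2053 CPM) led the immediate early genes, which enzymatic dissociation of tissue is also known to induce, and Hsp90ab1 (2072 CPM) led the heat shock genes.

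The granzyme genes differed widely in how they were spread over single cells. Gzmb was present in 184 of the 191 NK cells with a median of 19 UMIs, and Gzma in 168 with a median of 47 UMIs. Gzmc had nearly as many UMIs in all (10209, against 12760 for Gzma) but was present in 94 cells, with a median of 0. The 20 cells highest in Gzmc held 71.6% of its UMIs, against 36.1% for Gzma and 40.4% for Gzmb by the same count, and 33 cells held 100 or more. In E0771-Res1 replicate 3 a single cell with 1266 Gzmc UMIs gave 80.8% of that mouse's total, and in E0771-Res1 replicate 2 a single cell gave 80.3%. The summed Gzmc level of a mouse, which ran from 2434 CPM in parental replicate 1 to 11906 CPM in E0771-Res1 replicate 3, therefore rested on few cells.

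Gzmd, Gzme, Gzmf and Gzmg, the neighbors of Gzmc on chromosome 14, were rarer still. Gzmd and Gzme were found in 13 cells each, Gzmf in 7 and Gzmg in 1, which held 201 UMIs in E0771-Res1 replicate 1. Of the 19 cells with any of the 4 genes, 16 also held Gzmc and 15 held at least 10 Gzmc UMIs, a level that 56 of all 191 cells reached. Gzmk, whose gene lies beside Gzma on chromosome 13, had 6 UMIs in 4 cells and was detected in 3.4% of thinned T cells. No 91-base window within the last 400 bases of the longest GENCODE transcript of a granzyme gene occurred in another granzyme. How reads that match several granzymes were counted was not tested, and the values of Gzmd to Gzmg rest on few cells.

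The promoters of the cluster are shown because these genes were found in the same cells. The lines below give the 60 bases of each promoter that matched Gzmc best, without gaps (minus strand, RefSeq, GRCm38.p6). They are on the transcribed strand, with the 8-letter cyclic AMP response element TGACGTCA in capitals. The match was searched on both strands, which read alike, and it occurs in 588 of 32851 RefSeq promoters of the same 300-base length (1.79%). Gzmb, which is expressed in most cells and lies at chr14:56258836-56262334 in the same cluster, is given for contrast. The windows lie at chr14:56234681-56234740 (Gzmc), chr14:56211456-56211515 (Gzmf), chr14:56159623-56159682 (Gzmg), chr14:56132621-56132680 (Gzmd), chr14:56120654-56120713 (Gzme) and chr14:56262386-56262445 (Gzmb), upstream of the start sites.
Gzmc: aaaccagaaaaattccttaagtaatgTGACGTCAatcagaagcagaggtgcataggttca
Gzmf: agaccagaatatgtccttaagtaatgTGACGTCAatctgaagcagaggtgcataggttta
Gzmg: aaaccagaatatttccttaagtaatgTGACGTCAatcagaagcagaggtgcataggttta
Gzmd: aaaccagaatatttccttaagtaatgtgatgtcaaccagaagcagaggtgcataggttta
Gzme: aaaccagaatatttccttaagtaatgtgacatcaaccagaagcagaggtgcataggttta
Gzmb: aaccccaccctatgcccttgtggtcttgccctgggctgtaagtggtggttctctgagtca

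The windows of Gzmd, Gzme, Gzmf and Gzmg were identical to that of Gzmc at 55, 55, 54 and 57 of 60 bases, and that of Gzmb at 25. The best matches of Gzma, Gzmk, Gzmm and Prf1, on other chromosomes, had 27, 24, 24 and 22. The match of Gzmb was thus no closer than that of an unlinked gene. The 8 letters were present for Gzmc, Gzmf and Gzmg and absent for Gzmd and Gzme, which were detected in more cells than Gzmf and Gzmg. A match of letters is a description of the sequence, and no binding was measured.

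**Figure D3:**
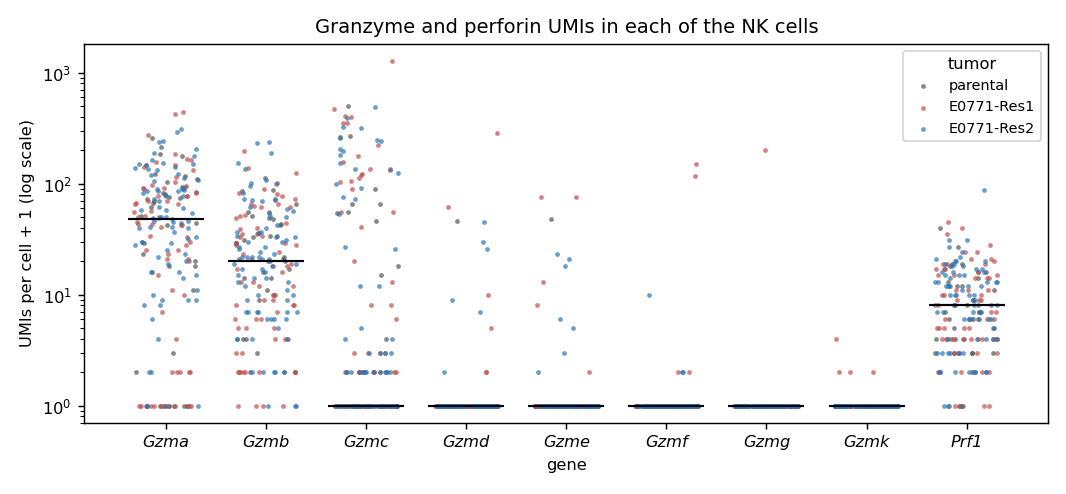
UMIs per cell plus 1 (log scale) of granzyme genes and Prf1 in each of the 191 NK cells, colored by tumor line, with black lines at the median. Gzmb is present in 184 cells and Gzma in 168, whereas Gzmc is absent from 97 cells and reaches 1266 UMIs in 1 cell.

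Cells with and without Gzmc differed in other genes. After thinning to 3500 UMIs, 56 cells held at least 3 Gzmc UMIs, 95 held none and 21 held 1 or 2, and each of the 8 mice had cells of both kinds (3 to 16 with Gzmc, 5 to 18 without). The split was made after the values had been seen, so the differences are described without a test. Before thinning, the median depth was higher in cells with Gzmc in every mouse (10287 to 17703 UMIs, against 4349 to 9181), and the cells without Gzmc held more macrophage RNA on average (Lyz2 2160 against 330 CPM, higher in 6 of 8 mice). The part of both in the differences below was not tested.

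Higher in the cells with Gzmc were Xcl1 (5067 against 1614 CPM, in 7 of 8 mice), Spp1, which encodes osteopontin (2747 against 510, in 7), and S100a4 (1323 against 510, in 8). Receptors and factors of lower abundance were also higher there, among them Cd160 (187 against 33.8 CPM, in 7 mice), the checkpoint receptor Lag3 (132 against 13.2, in 7) and Tcf7, which encodes TCF-1 (110 against 31.2, in 8). Cell cycle genes summed to 6739 CPM against 3335 CPM, higher in 6 of 8 mice, and the T cell markers, in which Trbc1 and Trbc2 dominate, to 1139 against 685 CPM in 8 of 8. The cathepsin Ctsw stood at 948 against 480 CPM.

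Other genes were lower in the cells with Gzmc. Klf2, a factor of circulating lymphocytes, stood at 103 CPM against 923 CPM, Zeb2, a factor of terminal NK maturation, at 80.4 against 412, Ccl5 at 861 against 6521 and Ccl3 at 203 against 1159, each lower in 8 of 8 mice. The mature NK list as a whole summed to 5754 against 6889 CPM and was lower in 5 of 8 mice, and its gene Lgals1 was higher with Gzmc in 6 of 8 (2481 against 2087 CPM). Eomes (92.4 against 297 CPM) and Klra8 (152 against 359) were lower in 6 of 8, and Klra4 (153 against 489) in 7. Klra7 was similar (457 against 464). Higher with Gzmc were the ILC1 and tissue residency list (3948 against 3049 CPM, in 5 of 8) and the immature list (1292 against 645, in 6). Whether these cells are conventional NK cells or ILC1 was not tested. Gzma stood at 5975 against 11155 CPM (lower in 7 of 8) and Ifng at 246 against 585 CPM. The immediate early genes summed to 11434 against 20163 CPM, the NK transcription factors to 3751 against 5628 and the cytokine receptors to 2286 against 3373, all lower in 8 of 8 mice. Gzmb (3723 against 3888 CPM) and Prf1 (1120 against 908 CPM) were each higher in 4 mice and lower in 4, so the amount of these effector transcripts did not separate the 2 kinds of cell.

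**Figure D4:**
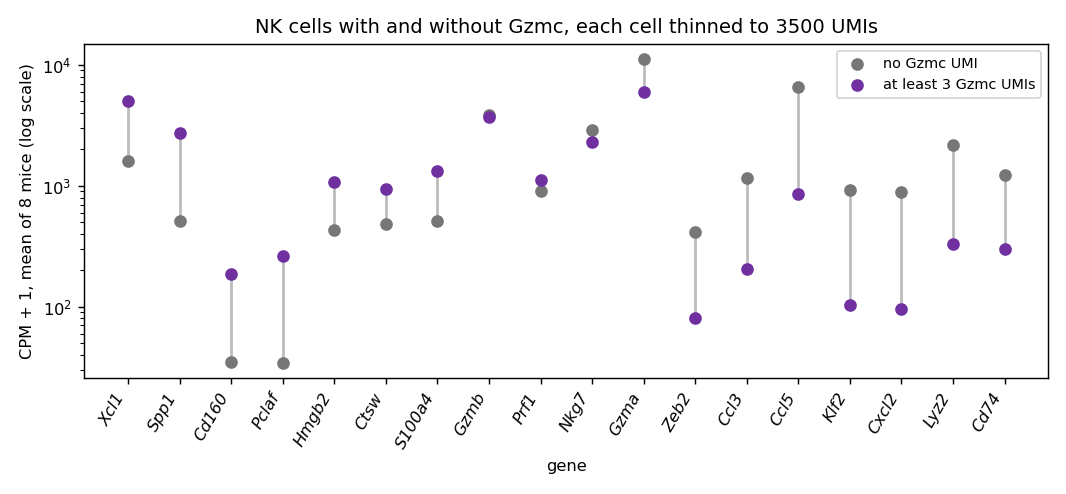
Levels (CPM plus 1, log scale, mean of 8 mice) of 18 genes in NK cells with at least 3 Gzmc UMIs and with none, each cell thinned to 3500 UMIs. Xcl1, Spp1 and Cd160 lie higher and Klf2, Ccl5, Ccl3 and Zeb2 lower in the cells with Gzmc, while Gzmb and Prf1 lie close together.

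The comparison of tumor lines asked whether NK cells changed with acquired resistance. No gene passed an adjusted p of 0.05 in NK cells. Of 3454 genes tested by edgeR's quasi-likelihood test on the counts of each mouse, 0 (0%) were called for E0771-Res1 against parental, for E0771-Res2 against parental, for both lines against parental and for E0771-Res2 against E0771-Res1. Unadjusted p-values under 0.05 were found for 114, 181, 140 and 193 genes, and DESeq2 also called 0, with 35, 73, 41 and 84. The same test in the T cells of these mice called 0, 188, 27 and 61 of 7269 genes (0%, 2.59%, 0.371% and 0.839%), from 707 cells. The median 95% interval of a log2 fold change in NK cells reached 0.85, 0.83, 0.77 and 0.70 to either side, and for the 822 genes above a log2 CPM of 8 it reached 0.54, 0.53, 0.49 and 0.47.

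For the effector genes below the intervals give a range for the difference. The log2 fold change of Gzma was 0.18 (95% interval -0.43 to 0.79) for both resistant lines against parental, that of Prf1 0.20 (-0.23 to 0.63) and that of Gzmb 0.07 (-0.23 to 0.37). Nkg7 differed by -0.14 (-0.46 to 0.19), Klre1 by 0.01 (-0.41 to 0.43), Ifng by -0.01 (-0.76 to 0.74) and Xcl1 by -0.50 (-1.23 to 0.22). These values do not show that the lines are alike, but they leave out changes of the bounds' size or more. C1qbp encodes a mitochondrial C1q receptor. It stood at 90.5 and 72.8 CPM in parental, 135, 74.7 and 106 CPM in E0771-Res1 and 87.4, 118 and 88.5 CPM in E0771-Res2. The groups overlapped, and its log2 fold change for both lines was 0.38 (-0.27 to 1.03, edgeR adjusted p = 0.984).

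Cell cycle and interferon genes leaned in opposite directions in E0771-Res2, with no call. Without the filter on low counts, 5 of 40 cell cycle and 4 of 62 interferon genes were called for E0771-Res2 against E0771-Res1, beside 41 of all 12125 genes. For E0771-Res2 against parental these were 4 of 40 and 1 of 62, beside 25 of 12125. For both lines against parental they were 1 of 40 and 0 of 62, beside 12 of 12125. Cell cycle genes summed to 6677 and 8783 CPM in parental, 8517, 6313 and 6093 CPM in E0771-Res1 and 4556, 7038 and 2488 CPM in E0771-Res2 replicates. The lowest 2 mice were both E0771-Res2, and the remaining E0771-Res2 mouse lay within the other groups. Of 36 cell cycle genes tested, 1 had a positive log2 fold change for E0771-Res2 against E0771-Res1, with a median of -0.68 beside -0.01 over all genes tested. Of the 36, 10 had an unadjusted p under 0.05, all lower, as had 5.59% of all genes in either direction, and 0 were called. Ube2c, a ubiquitin carrier of mitosis, had a log2 fold change of -2.10 ± 0.64 (SE) and Cenpf, a kinetochore protein gene, of -1.80 ± 0.59, both with an edgeR adjusted p of 0.842. Against parental the median was -0.51, with 6 of 36 above 0, and it was -0.23 (13 of 37) without E0771-Res2 replicate 3, -1.33 (2 of 33) without E0771-Res2 replicate 2 and -1.67 (2 of 22) among NK cells with no Cd3 or Csf1r UMI. Without E0771-Res2 replicate 3, in which Pclaf had 0 UMIs and Stmn1 10.4 CPM, the median for E0771-Res2 against E0771-Res1 was -0.37 with 8 of 37 above 0, and without E0771-Res1 replicate 1 it was -0.36 with 7 of 29. Without E0771-Res2 replicate 2 it was -1.33, and among NK cells with no Cd3 or Csf1r UMI it was -1.80, with 0 above 0 in both. A share of NK cells with at least 2 cell cycle UMIs was not informative, since 92.9% to 100% of thinned cells reached it in every mouse.

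Interferon response genes leaned the other way. They summed to 11142 and 10540.0 CPM in parental, 13048, 6570.1 and 8350 CPM in E0771-Res1 and 12869, 12127 and 16299 CPM in E0771-Res2 replicates. All E0771-Res2 mice lay above both parental mice, and E0771-Res1 held the 2 lowest values and 1 that fell among E0771-Res2. Of 56 genes tested, 50 had a positive log2 fold change for E0771-Res2 against E0771-Res1, with a median of 0.43, and 43 of 56 for E0771-Res2 against parental, with a median of 0.37. None was called, and 11 had an unadjusted p under 0.05 against E0771-Res1, among them Stat2 (log2 fold change 1.10 ± 0.35), Irf7 (0.93 ± 0.31) and Usp18 (0.98 ± 0.36). Csf1r+ cells express these genes at 24262 CPM, and the macrophage marker sum was also highest in E0771-Res2 replicate 3, which had 11317 CPM. Of 15 macrophage markers tested, 13 were above 0 for E0771-Res2 against E0771-Res1, with a median of 0.82. None of them was called, and 6 had an unadjusted p under 0.05, as had 5.59% of all genes. Without the 28 cells rich in macrophage RNA, 36 of 47 interferon genes were above 0 with a median of 0.33, and without E0771-Res1 replicate 1 46 of 50 with a median of 0.96. Without E0771-Res1 replicate 2 the count was 45 of 58 with a median of 0.25, and among NK cells with no Cd3 or Csf1r UMI it was 43 of 47 with a median of 0.92. Against parental the median was 0.16 without E0771-Res2 replicate 3 and 0.19 without the cells rich in macrophage RNA.

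In the remaining lists no gene was called either. Heat shock genes had a median of -0.28 for E0771-Res2 against E0771-Res1, with 0 of 16 above 0 and none under an unadjusted p of 0.05. For both lines against parental the medians were 0.10 for the granule genes (19 tested), -0.05 for the activating and -0.22 for the inhibitory receptor list (16 and 12, Klra4 in the second), 0.11 for receptor adaptors (19), -0.04 for transcription factors (17), -0.24 for tissue residency (11), 0.45 for mature (11) and 0.21 for immature NK genes (8). They were -0.01 for cytokines and chemokines (9), 0.08 for chemokine and lipid receptors (6), -0.03 for cytokine receptors (15), 0.01 for MHC class I (18), 0.13 for glycolysis and hypoxia (18), -0.13 for the mitochondrial list (19), -0.02 for mTORC1 and MYC targets (15) and 0.01 for immediate early genes (29). The median over all genes tested was 0.01, and 0 of the 332 list genes tested were called in any of the 4 comparisons.

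The genes of smallest p are given here, none of them called. They were chosen by p, so a separation of their mice follows in part from the choice. The share of all genes with such a separation is not given here. Malt1, the protease of antigen receptor signaling to NF-kB, stood at 181 and 100.1 CPM in parental, 283, 348 and 258 CPM in E0771-Res1 and 320 CPM, 254 and 249.9 CPM in E0771-Res2. All resistant mice lay above both parental mice, with a log2 fold change of 0.99 ± 0.25 (edgeR adjusted p = 0.984). Mat2a, which makes S-adenosylmethionine, stood at 122 and 118 CPM in parental and between 36.4 and 68.4 CPM in the 6 resistant mice (log2 fold change -1.06 ± 0.28, edgeR adjusted p = 0.984), and Hmgn1, a nucleosome-binding protein gene, at 140 and 155 CPM in parental and lower in all 6 resistant mice (-1.12 ± 0.29). Etnk1 (1.34), Eno1 (0.72) and Usp15 (1.13) were higher and Cnot6 (-1.07) and Mrpl18 (-0.70) lower in both lines together, in each case without overlap of the mice, whereas Ube2c (-1.76) overlapped.

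Chil3, a chitinase-like protein gene of macrophages, stood at 22.6 and 27.3 CPM in parental, 114, 24.9 and 37.99 CPM in E0771-Res1 and 197, 124 and 172 CPM in E0771-Res2 (log2 fold change for E0771-Res2 2.78 ± 0.57, edgeR adjusted p = 0.898). Fabp5 (2.43), Cst3 (1.58) and F10 (1.86) were also higher in E0771-Res2 than in parental, Mmp12 (2.64), H2-Ab1 (1.76, but -0.19 among NK cells with no Cd3 or Csf1r UMI) and Golga4 (1.39) in E0771-Res1 than in parental, and Rgl1 (1.86), F10 (1.59), C3ar1 (1.75), Ifi213 (1.48) and Plin2 (0.97) in E0771-Res2 than in E0771-Res1. Over 15 macrophage markers tested the median log2 fold change was 0.82 for E0771-Res2 against E0771-Res1, 0.44 for E0771-Res2 against parental and -0.05 for E0771-Res1 against parental. Over 5 dendritic cell markers, H2-Ab1 among them, it was -0.81, 0.72 and 1.55 in the same order. The part of myeloid RNA in these values was not tested. Lower were Cks2 (-1.18), Lmnb1 (-1.13), Eif2s3x (-1.40) and Ube2c (-2.81) in E0771-Res2 and Slamf9 (-1.84) and Camk2n1 (-1.45) in E0771-Res1 against parental, and Tubb4b (-1.16), Dhx9 (-1.10), Lmnb1 (-1.04) and Hhex (-1.08) in E0771-Res2 against E0771-Res1. Gzmf had 0 UMIs in both parental mice, 118, 149 and 0 UMIs among the E0771-Res1 mice and 1, 9 and 1 among the E0771-Res2 mice. A single cell held all 149 UMIs of E0771-Res1 replicate 2 and another 116 of the 118 UMIs of replicate 1, and no fold is given for it.

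A single result separated NK cells from T cells of the same mice. Gzmb in NK cells stood at 3002, 3036 and 2819 CPM in E0771-Res1 and at 3718, 3414 and 4112 CPM in E0771-Res2, with 3533 and 3004 CPM in parental. In T cells it stood at 919, 631 and 553 CPM in E0771-Res1 and at 275, 295 and 404 CPM in E0771-Res2, with 356 and 377 CPM in parental. The summed level of the E0771-Res2 mice thus lay above E0771-Res1 in NK cells and under E0771-Res1 in T cells, without overlap in either class. The level of the median NK cell did overlap, at 23.5, 20.6 and 7.37 Gzmb UMIs per 10000 UMIs of a cell for the E0771-Res1 mice and 20.5, 17.8 and 21.9 for the E0771-Res2 mice. The top cell of each mouse held 23.2%, 16.2% and 29.4% of the Gzmb UMIs in E0771-Res2 and 14.0% to 24.3% in E0771-Res1. The log2 fold change of E0771-Res2 against E0771-Res1 was 0.38 (95% interval 0.08 to 0.68, edgeR adjusted p = 0.846) in NK cells, which was not called, and Gzmb fell by 1.07 in T cells (edgeR adjusted p = 0.00533).

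The test of the difference between the classes, with mouse as a block, gave 1.44 ± 0.22 (95% interval 0.98 to 1.91, edgeR adjusted p = 0.0277). Gzmb was the single gene called of 5687 (0.0176%), and 0 were called for the differences of E0771-Res1 or of E0771-Res2 against parental (234 and 276 at an unadjusted p under 0.05). It was above 0 in all 15 alternatives run and called in 9, with a range of 1.24 to 1.74 and adjusted p from 3.5e-08 to 0.153, and leaving out parental replicate 1, E0771-Res2 replicate 1 or E0771-Res2 replicate 2 ended the call. Differences of the same sign that were not called with all mice in the fit were found for the lectin-like receptor gene Klre1 (1.69 ± 0.33, edgeR adjusted p = 0.211), Prf1 (1.59 ± 0.47), Gzma (2.40 ± 0.72), Gzmc (1.60 ± 0.63) and Nkg7 (1.00 ± 0.23), which were chosen after their values had been seen. Of these, Gzmc was called without E0771-Res1 replicate 3 (2.52) and Klre1 without E0771-Res2 replicate 3 (2.05). The granule genes Ctsw and Srgn had smaller differences (0.19 ± 0.26 and 0.34 ± 0.25). In T cells the first 5 fell by 1.37, 1.59, 2.85, 2.16 and 0.72 on the log2 scale in E0771-Res2 against E0771-Res1, with edgeR adjusted p from 0.00697 to 0.0481. T cells were taken as 1 class, so a shift in the mix of T cell types and a change within a type cannot be told apart.

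**Figure D5:**
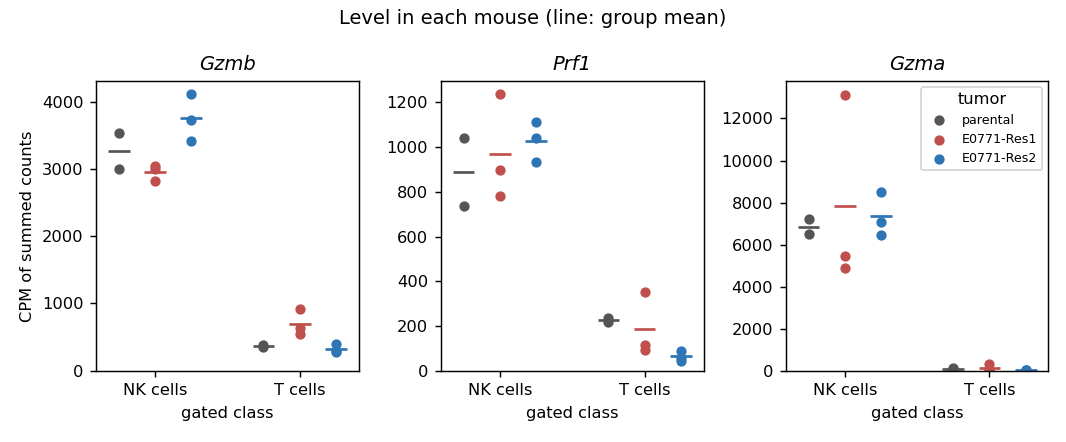
Levels (CPM of summed counts) of Gzmb, Prf1 and Gzma in NK cells and T cells of each mouse, with points for mice, colors for tumor lines and lines at the group means. Gzmb of E0771-Res2 lies between 3414 and 4112 CPM in NK cells, above E0771-Res1, and between 275 and 404 CPM in T cells, under E0771-Res1.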

How the data were processed

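Droplet-based 3′ single-cell libraries of CD45+ cells, tagged by mouse and pooled, were measured in 8 tumors. The authors deposited unnormalized UMI counts, 1 matrix of genes by cells per mouse, made with Cell Ranger 6.1.2 per the file headers, with mm10 and Seurat also named in the submitters' processing notes. Each matrix held 32285 genes and 9 tag features, which were left out. Cells with 500 to 6000 genes and under 10% mitochondrial counts were kept, which left 10605 of 11430, after the study's methods, and 8652 genes (mt-, Rpl, Rps and Gm symbols) did not enter the tests.

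Counts were summed per mouse over NK cells and, separately, T cells and tested with edgeR 4.0.16 (TMM, filterByExpr, quasi-likelihood test, Benjamini-Hochberg adjustment, threshold 0.05) in 1 fit over the 3 groups. NK and T cells were compared by the interaction of class and group with mouse as a block. Shares were tested by two-sided exact permutation over mice (scipy 1.17.1, Python 3.11.15) with adjustment over 3 measures. Levels are CPM of summed counts, and 3′ counts were not divided by length. Thinning drew 3500 UMIs per NK, T or Csf1r+ cell and 2000 for all cells, keeping at least 90% of the cells that set it. Doublets were scored with Scrublet in scanpy 1.11.5, and DESeq2 1.42.0 was an alternative. Simulated counts with known changes served to test the edgeR scripts. Replicates of 1 group differed by more than sampling noise (chi-square per degree of freedom 1.71 to 2.62), and none was counted as a repeat.

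The members, the 19 functional lists (461 genes), the 11 marker lists and the tests were chosen with earlier results of these data known. Named were the markers, up to 5 of the most abundant genes of each list, genes called, C1qbp, and, where under 5 genes per direction were called, those of smallest p with an average log2 CPM of at least 6. Other genes, among them those of the Gzmc split, the granzyme cluster and the checkpoint receptors, were chosen after their values had been seen. Alternatives changed the gate, the filters on cells and genes, doublets, depth, normalization, the tool, the block and each mouse left out.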

Additional observations from a re-analysis of the deposited data

Results flagged for a closer look

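Gzmb differed between NK cells and T cells in its change from E0771-Res1 to E0771-Res2, by 1.44 on the log2 scale (edgeR interaction test with mouse as a block, adjusted p = 0.0277, 3 mice against 3). The summed level was higher in the 3 E0771-Res2 mice in NK cells and lower in them in T cells. The median per NK cell overlapped between the lines (7.37 to 23.5 UMIs per 10000 UMIs of a cell for E0771-Res1 and 17.8 to 21.9 for E0771-Res2). The top cell of each mouse held 23.2%, 16.2% and 29.4% of the Gzmb UMIs in E0771-Res2 and 14.0% to 24.3% in E0771-Res1. The Gzmb difference was the single one called among 5687 genes. It was called in 9 of the 15 alternatives run, and leaving out E0771-Res2 replicate 1 or E0771-Res2 replicate 2 ended the call. No group here had more than 3 mice, and single mice far from their group were not tested for.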

How the results depend on the processing

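The filter on low counts mattered most. Without filterByExpr, 12125 genes were tested and 10, 25, 12 and 41 were called for E0771-Res1, E0771-Res2 and both lines against parental and for E0771-Res2 against E0771-Res1, of which 8, 24, 11 and 37 were also in the filtered table, where 0 were called. Chil3, Fabp5, Cst3, Mmp12, H2-Ab1, C3ar1 and Ube2c were among these. The NK against T differences then gave 12, 22 and 19 calls. Removing the highest doublet scores gave 1 call (Cxcl2) in each comparison with parental, and leaving out 1 mouse gave 0 to 1 calls in NK cells. Without a parental mouse, the other is assumed to vary like the mice of the other groups. For the NK against T difference of E0771-Res2 against E0771-Res1, leaving out 1 mouse gave 0 to 5 calls, a gate of at least 1 UMI gave 2 (S100a8 and S100a9), and requiring no Cd3 or Csf1r UMI, or removing the highest doublet scores, gave 0. For the other 2 differences, leaving out 1 mouse gave 0 to 1 and 0 to 2. For E0771-Res1 against parental, Gzmc (-2.78) was called without E0771-Res1 replicate 3. For E0771-Res2 against parental, Gzma (2.415) and Prf1 (2.05) were called without E0771-Res1 replicate 1, and Cst3 (2.23) without E0771-Res2 replicate 1. Gzmb was not called with a gate of at least 1 UMI, without any Cd3 or Csf1r UMI or without the highest doublet scores. Same-numbered mice did not vary together (correlations of -0.0993 to 0.0633), so numbers were not taken as pairs, and the replicate block gave 1 call (Gzmf) for E0771-Res2 against E0771-Res1 and 0 elsewhere. A fit of only the groups compared was not run for both lines together.

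The difference of 0.367 percentage points by which the NK share of NK and T cells was lower in resistant tumors became 2.95 higher with a gate of at least 1 UMI, and ran from -4.79 to 4.05 when 1 mouse was left out, with values above 0 of 4.05 without parental replicate 3, 0.440 without E0771-Res1 replicate 3 and 0.315 without E0771-Res2 replicate 3. None of these had a p under 0.05. The share of all cells kept its sign in 14 of 14 alternatives. H2-Ab1 for E0771-Res1 against parental reversed to -0.19 without any Cd3 or Csf1r UMI. The causes were not tested. Depth is limited by 13 to 42 NK cells per mouse, by medians of 6542 to 10096 UMIs per NK cell and by 2 or 3 mice per group.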

Other observations

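Cxcl2, a neutrophil-attracting chemokine that Csf1r+ cells express at a higher level, showed how far 1 cell can carry a mouse's value among so few NK cells. It was chosen after its values had been seen. It stood at 430 and 72.8 CPM in parental, 519, 572 and 494 CPM in E0771-Res1 and 510, 513 and 573 CPM in E0771-Res2 NK cells, and 76 of the 95 UMIs of parental replicate 1 came from 1 cell. Single cells also held 46.3%, 72.5% and 76.9% of the Cxcl2 UMIs of the E0771-Res1 mice and 38.6%, 49.4% and 40.0% of those of the E0771-Res2 mice. All 6 resistant mice lay above both parental mice in the sums, to which these cells gave a large part. The level of the median NK cell was 0 in both parental mice. It was 0.599 to 1.80 Cxcl2 UMIs per 10000 UMIs of a cell in the 6 resistant mice, from medians of 1 to 1.5 UMIs. The log2 fold change was 0.98 for E0771-Res1 and 1.02 for E0771-Res2 (edgeR adjusted p = 1.00 and 0.898). Without the cells with the highest doublet scores these were 2.73 and 2.75, and without parental replicate 1 they were 2.84 and 2.91, called in each case. The latter fit has 1 parental mouse, which is assumed to vary like the mice of the other groups. Cxcl2 in the NK cells without Gzmc stood at 895 CPM, against 93.9 CPM in those with Gzmc, lower in 8 of 8 mice. The difference from parental was not particular to NK cells. In T cells Cxcl2 stood at 338 and 513 CPM in parental and at 756 to 1613 CPM in the 6 resistant mice. In Csf1r+ cells it stood at 1779 and 1957 CPM in parental, 2936.5 to 4824 CPM in E0771-Res1 and 1647 to 2365 CPM in E0771-Res2.

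Cma1, a chymase gene listed among the mast cell markers, was found in 32 of the 191 NK cells (10.5% of thinned NK cells, 0.3% of T cells and 0.2% of Csf1r+ cells). It was present in 7 of 8 mice, at up to 93.7 CPM in E0771-Res2 replicate 3, while 4 of the other 7 mast and basophil markers had no UMI in any NK cell.

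Trbc1 transcripts were detected in 72.7% of thinned NK cells and 36.1% of T cells, and Trbc2 in 43.0% and 70.9%. The ratio of the 2 constant region genes was thus opposite in the classes, in that Trbc1 was the higher of the pair in NK cells (428 against 294 CPM) and Trbc2 in T cells (890 against 399 CPM). Trac stood at 17.2 CPM in NK cells and 556 CPM in T cells.

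Spp1 was higher in NK cells than in the other classes on average (1410.4 CPM, against 204 in T cells and 244 in Csf1r+ cells), with a range of 199 to 2300.5 CPM between mice and no separation of the tumor lines.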
